A study of Mus musculus with 6 samples.

Results

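A group of 10 genes for renal amino acid transport was followed in sorted kidney cells of mice with and without floxed Trf1: Slc1a1, Slc3a1, Slc3a2, Slc6a18, Slc6a19, Slc6a20b, Slc7a7, Slc7a8, Slc7a9 and Tmem27. They were chosen by name as carriers and partner subunits of the kidney tubule, and make up 10 of the 12125 genes listed. Of these, 9 were found under their own symbol, and Tmem27, a RefSeq synonym of Cltrn, was found under Cltrn, the name used from here on. All mice carried Cre-ERT2 driven by the promoter of the fibroblast gene Col1a2, together with the reporter KFP (Katushka fluorescent protein) behind a floxed stop cassette. Mice of the Trf1flox/flox group also carried Trf1 alleles that Cre deletes, whereas the Trf1+/+ group kept both intact alleles. Tamoxifen, which activates Cre-ERT2, was injected into both groups 3 times a week for 8 weeks, starting at 6 to 8 weeks of age, in males and females. Each library was made from 500 kidney cells sorted with antibodies against CD29, an integrin, and the reporter, with 3 libraries per group, one mouse each. The sources used here do not state which of the markers the sequenced cells carried. The labels give no replicate numbers; the numbers 1 to 3 within each group were assigned here only to name the libraries, and they pair no mice.

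The proximal tubule takes back nearly all the amino acids that the glomerulus filters. Carriers of the brush border bring them into the cell from the lumen, and carriers of the basolateral membrane pass them on to the blood. Several of these carriers reach the membrane only with a partner: Slc7a9 is linked to the heavy chain encoded by Slc3a1, Slc7a7 and Slc7a8 are linked to the heavy chain encoded by Slc3a2, and Slc6a18 and Slc6a19 depend on collectrin, the product of Cltrn. Apart from Slc3a2, which most cells use, these genes are best known from epithelia and not from fibroblasts.

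Among the genes listed, the libraries labelled as fibroblasts held much tubule RNA and hardly any fibroblast RNA. Values are normalized counts, that is, the reads of a gene divided by one size factor per library. Col1a2, the gene whose promoter drives Cre, had at most 1.78 normalized counts in any of the 6 libraries. This is at the floor, set here at 3 reads per library. Col1a1, Pdgfra and Pdgfrb have no row in the table, and Dcn reached 93.6 in Trf1+/+ and 97.3 in Trf1flox/flox libraries. Of 19 fibroblast markers 4 are listed, and their sums lay between 8.91 and 210 normalized counts. Why the other 15 have no row is not known. A missing row is not a measured 0, since C1qb is listed with 0 in all 6 libraries. All 20 proximal tubule markers are listed, with sums between 47426 and 233016 normalized counts. The endocytic receptor gene Lrp2 had 474 to 6454, its partner Cubn 4.14 to 1079, and the phosphate carrier gene Slc34a1 1290 to 11167 normalized counts. Sums of the 11 loop and distal tubule markers were between 87455 and 196575. The label of fibroblasts is therefore not borne out by the markers that are listed, and the samples are called sorted kidney cells here.

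The library labelled Trf1+/+ replicate 1 stood apart from the other 5. It had 8967 genes above 0 against 9733 to 11593, and a median of 13.4 normalized counts per gene against 118 to 148. For Terf1, which encodes TRF1, the values were 0.891, 253 and 235 under the label Trf1+/+ and 110, 7.65 and 12.4 under the label Trf1flox/flox. The first Trf1+/+ library thus held 1 Terf1 read, and the first Trf1flox/flox library held 128 reads of this gene. In that Trf1+/+ library the genes Atf4 and Slc22a8, read in the other 5, also had 1 read each. The cause of these Terf1 values was not tested, and the labels were kept. Fold changes of the 10 genes, and those list medians that are printed, are given with all 6 libraries and without the library labelled Trf1+/+ replicate 1. The listed genes held 10263382 to 12248797 reads per library, and 1 read was worth 0.689 to 1.09 normalized counts.

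**Figure D1:**
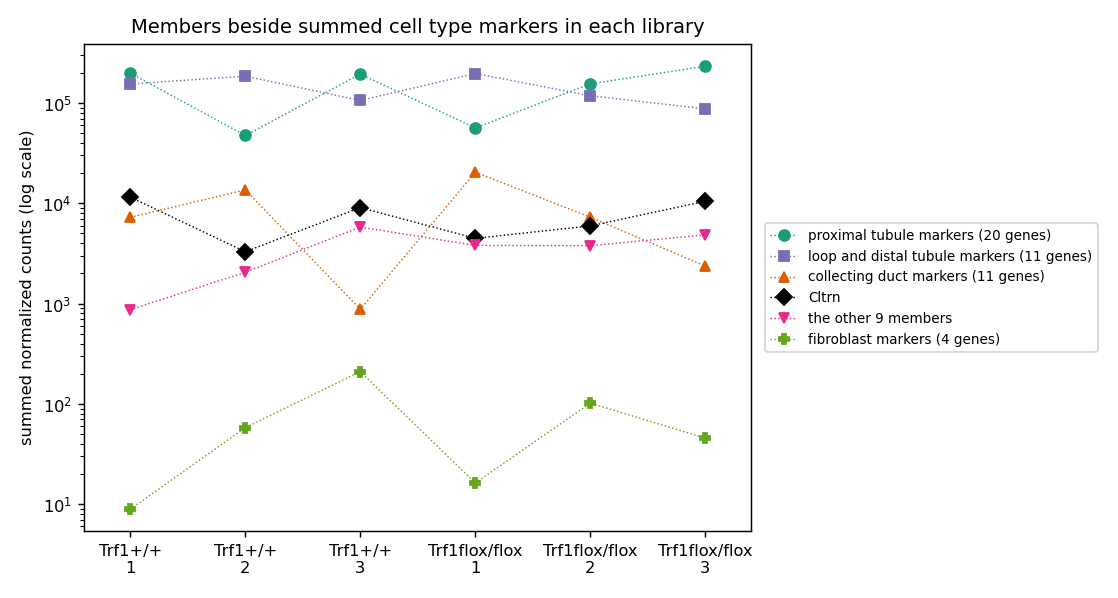
Summed normalized counts (log scale, vertical axis) of Cltrn, of the other 9 members and of marker lists of kidney cell types in each of the 6 libraries (horizontal axis), with 1 point per library. The 4 listed fibroblast markers stay at or under 210 in each library, while the proximal tubule markers lie at or above 47426.

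Cltrn was the most abundant of the 10 genes in each of the 6 libraries when levels were set against exon length. It encodes collectrin, a membrane protein of the tubule that brings carriers of the Slc6 family to the brush border. Its gene lies on chromosome X (164088830 to 164118860, plus strand, GRCm38). Cltrn had 11524, 3289 and 9062 normalized counts in the Trf1+/+ mice and 4475, 5953 and 10487 in the Trf1flox/flox mice. The means were 7958 ± 4227 and 6971 ± 3133 (SD, n = 3 each). The groups overlapped, with the highest and the lowest value both in Trf1+/+ libraries, and the highest value was 3.50 times the lowest. Ordered by Cltrn, the libraries ran nearly as they did by the summed proximal tubule markers, with only the 2 highest exchanged. In these pooled cells, fewer cells of a type and less RNA per cell cannot be told apart.

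Per kilobase of exon, the median of Cltrn over the 6 libraries was 4862 normalized counts, and the next, Slc3a2, had 189. The lowest library of Cltrn, with 2130 per kilobase, was above the highest value of any other member. After Slc3a2 came Slc3a1 with 174, Slc6a18 with 80.0, Slc6a19 with 73.4, Slc7a7 with 65.6, Slc6a20b with 59.7, Slc1a1 with 57.3, Slc7a8 with 56.6 and Slc7a9 with 35.7 per kilobase. Each of these 9 overlapped with its neighbours in the order. Slc3a1 was above Slc6a18 in 6 of 6 libraries, whereas Slc6a20b was above Slc1a1 in 1 of 6. Slc7a9, last by its median, had the highest single value of the 9, with 345 per kilobase in Trf1+/+ replicate 3.

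**Figure D2:**
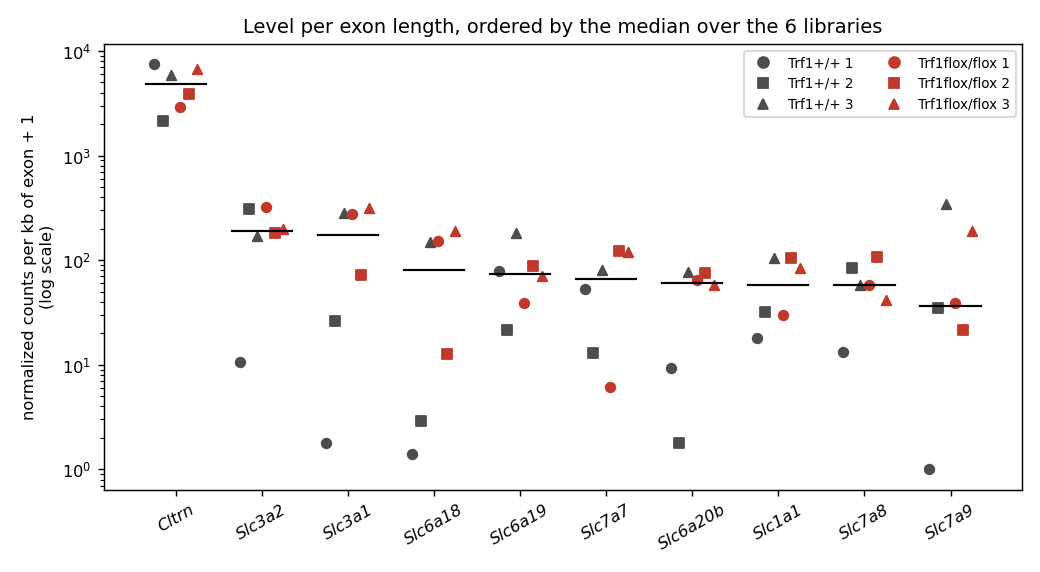
Normalized counts per kilobase of exon plus 1 (log scale) of each gene in each library, ordered from left to right by the median over the 6 libraries, which is drawn as a bar. Cltrn lies above the other genes in every library, and the other 9 overlap with each other.

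Promoters were searched on both strands for a motif of HNF4, a nuclear factor that acts in the proximal tubule, and for the TATA box. The motif searched for HNF4 was CAAAGTCCA. The TATA box was searched as TATAAA. The promoter of Slc3a1, the heavy chain of the luminal cystine carrier, is shown because it was the only one among the members that held either motif. The run below is the 250 bases before its RefSeq start on GRCm38.p6, from chr17:85028097-85028346 (plus strand), and capitals mark the matches.
Slc3a1: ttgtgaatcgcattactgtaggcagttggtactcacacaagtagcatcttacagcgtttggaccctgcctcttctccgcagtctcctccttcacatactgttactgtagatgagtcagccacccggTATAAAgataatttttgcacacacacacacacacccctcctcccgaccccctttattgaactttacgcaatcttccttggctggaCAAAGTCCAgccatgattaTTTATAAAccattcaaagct
The HNF4 motif began 39 bases before the start, and TATA boxes began 124, 20 and 18 bases before it, the last 2 overlapping on opposite strands. The window searched runs to 50 bases after the start. RefSeq promoters were matched for 9 of the 10 genes. The HNF4 motif was found in 0.475% and the TATA box in 13.6% of all 32851 promoters of this length. A match is a description of the letters and not a bound site. Of the factor itself, Hnf4a had 384 to 1541 normalized counts.

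Among the luminal carriers, the levels of Slc6a18, Slc6a20b and Slc7a9 differed most between libraries of one group. Slc6a18 encodes a carrier of neutral amino acids in the late proximal tubule (chromosome 13, 73661752 to 73678023, minus strand). It had 1.78, 8.29 and 655 normalized counts in the Trf1+/+ mice and 674, 51.4 and 824 in the Trf1flox/flox mice. The libraries labelled Trf1+/+ replicates 1 and 2 were below all others, and Trf1+/+ replicate 3 lay within the Trf1flox/flox range, so that the groups overlapped. The log2 fold change of Slc6a18, in Trf1flox/flox minus Trf1+/+, was 3.58 (standard error SE 2.30, 95% interval -2.03 to 9.19, limma). With edgeR and DESeq2 on the recovered reads it was 1.25 and 1.22. Leaving out the library labelled Trf1+/+ replicate 1 gave 1.98, and leaving out Trf1+/+ replicate 3 gave 5.92.

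Slc6a19, the next gene on chromosome 13 (73679745 to 73704865, minus strand), encodes the main luminal carrier of neutral amino acids in the early proximal tubule. Its normalized counts were 389, 102 and 908 in the Trf1+/+ and 189, 435 and 345 in the Trf1flox/flox libraries. All 3 Trf1flox/flox values lay inside the Trf1+/+ range. For Slc6a19 the log2 fold change was -0.12 (SE 1.07, 95% interval -2.71 to 2.48). Although the 2 genes are neighbours, Trf1+/+ replicate 1 held 389 normalized counts of Slc6a19 and 2 reads of Slc6a18. An antisense gene, Slc6a19os, overlaps Slc6a19 over 5040 bases. Overlaps of genes are given here for whole gene spans, introns included, and the overlap of exons was not taken. Only where exons overlap would these non-stranded libraries be unable to tell the reads of the 2 apart.

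Slc6a20b is one of a pair of mouse genes related to the human gene for the luminal proline carrier (chromosome 9, 123590800 to 123632565, minus strand). It had 70.4, 6.63 and 646 normalized counts in the Trf1+/+ mice and 539, 638 and 481 in the Trf1flox/flox mice. The 3 Trf1flox/flox libraries were close to each other (553 ± 79.5, SD, n = 3), and the Trf1+/+ libraries spread widely (241 ± 352, SD, n = 3), with the highest value of all in Trf1+/+ replicate 3. Slc6a20b had a log2 fold change of 2.96 (SE 1.66, 95% interval -1.08 to 7.0) in limma, and of 1.17 and 1.2 in edgeR and DESeq2. Without the library labelled Trf1+/+ replicate 1 the log2 fold change was 2.97, and without Trf1+/+ replicate 2 it was 1.36. Its level is uncertain in that transcripts of its pair, Slc6a20a, which has no row in the table, share 1732 aligned bases with it at 91.2% identity. The span of the gene Sacm1l overlaps that of Slc6a20b over 1801 bases on the other strand.

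Slc1a1, the luminal carrier of glutamate and aspartate (chromosome 19, 28835049 to 28913960, plus strand), was read in all libraries. It had 141, 254 and 860 normalized counts in the Trf1+/+ mice and 241, 868 and 692 in the Trf1flox/flox mice. The groups overlapped over nearly their whole range. Slc1a1 had a log2 fold change of 0.74 (SE 1.05, 95% interval -1.81 to 3.30), and 0.17 without the library labelled Trf1+/+ replicate 1. Gene 4430402I18Rik overlaps it over 20919 bases on the other strand.

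**Figure D3:**
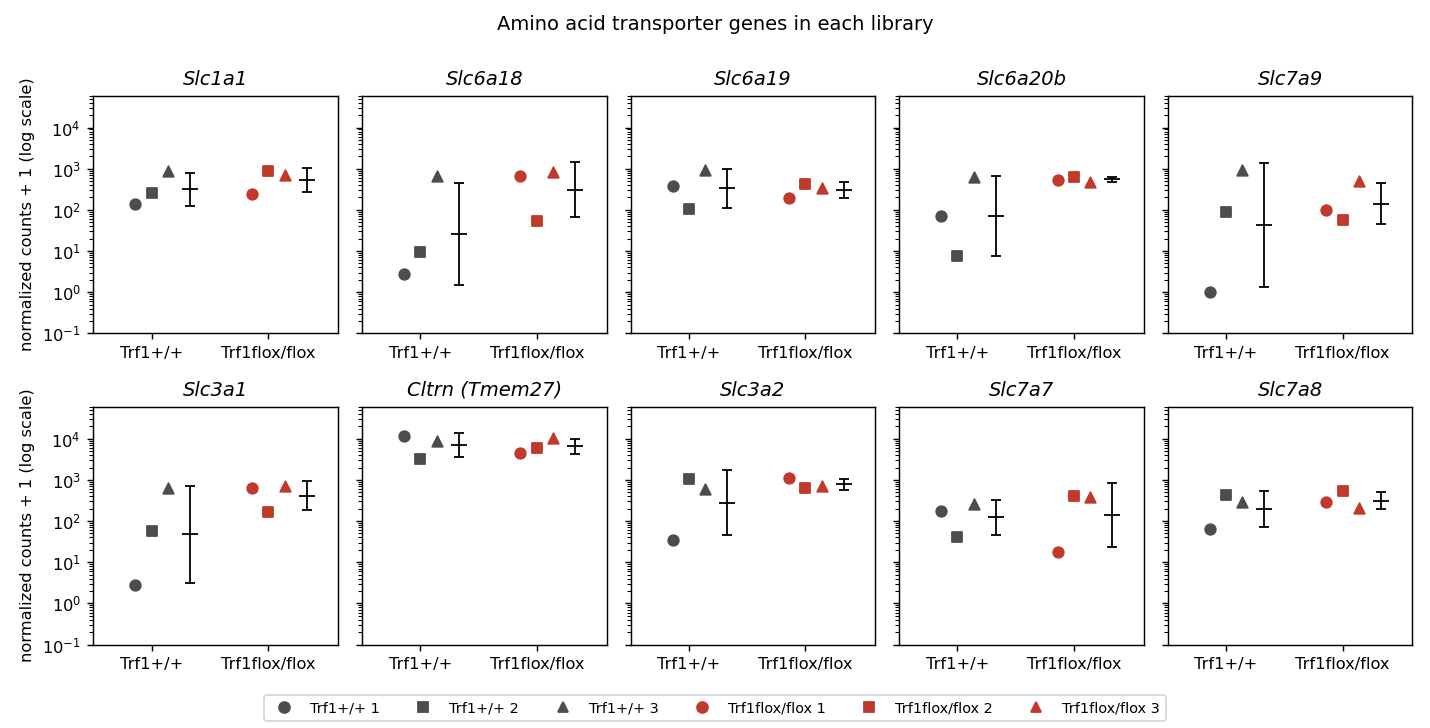
Normalized counts plus 1 (log scale) of the 10 genes in the 3 Trf1+/+ (grey) and 3 Trf1flox/flox (red) libraries, with circle, square and triangle for replicates 1, 2 and 3. Black bars give the mean and SD on the log2 scale (n = 3), and the groups overlap for each of the 10 genes.

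Slc7a9 and Slc3a1 encode the light and the heavy chain of the luminal carrier of cystine and dibasic amino acids, and loss of either causes cystinuria. Slc7a9 (chromosome 7, 35448796 to 35466036, plus strand) had 0, 90.3 and 922 normalized counts in the Trf1+/+ mice and 101, 54.6 and 504 in the Trf1flox/flox mice. Zero reads in the library labelled Trf1+/+ replicate 1 allow up to 2.67 normalized counts, which covers counting error only. Trf1+/+ libraries held both the highest and the lowest value. The log2 fold change of Slc7a9 was 1.69 (SE 2.56, 95% interval -4.54 to 7.93). Its direction rested on that library, since it was -1.03 without it, and it was -0.56 with edgeR and -0.62 with DESeq2 on the recovered reads.

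Slc3a1 (chromosome 17, 85028376 to 85064236, plus strand) had 1.78, 58.0 and 645 normalized counts in the Trf1+/+ mice and 628, 162 and 706 in the Trf1flox/flox mice. The libraries labelled Trf1+/+ replicates 1 and 2 were below the others, and Trf1+/+ replicate 3 was among the highest. The log2 fold change of Slc3a1 was 3.14 (SE 2.05, 95% interval -1.84 to 8.12), and 1.09 without the library labelled Trf1+/+ replicate 1. In edgeR and DESeq2 it was 1.09 and 1.08. Prepl overlaps it over 767 bases on the other strand. Per kilobase of exon, Slc3a1 stood at 0.757 and 0.825 times Slc7a9 in Trf1+/+ replicates 2 and 3 and at 7.36, 3.49 and 1.65 times Slc7a9 in the Trf1flox/flox libraries. The library labelled Trf1+/+ replicate 1 gave no ratio, because Slc7a9 was at 0 there. In that library Slc3a1 was above Slc7a9, with 0.784 against 0 per kilobase, as in the Trf1flox/flox libraries, but both were at the floor. The 5 ratios that could be taken did not overlap between the groups. With 2 libraries against 3 this was not tested, and no share over other gene pairs was taken.

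On the basolateral side, Slc3a2 encodes the CD98 heavy chain (chromosome 19, 8706882 to 8723369, minus strand), which most cell types use. It had 33.8, 1075 and 605 normalized counts in the Trf1+/+ mice and 1132, 635 and 697 in the Trf1flox/flox mice. The library labelled Trf1+/+ replicate 1 was far below the other 5, which lay between 605 and 1132. For Slc3a2 the log2 fold change was 1.49 (SE 1.44, 95% interval -2.02 to 5.0), and -0.02 once that library was left out.

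Slc7a7 (chromosome 14, 54369442 to 54417780, minus strand) encodes a light chain that exports dibasic amino acids, and its loss causes lysinuric protein intolerance. It had 171, 39.8 and 264 normalized counts in the Trf1+/+ mice and 17.2, 401 and 390 in the Trf1flox/flox mice. Both the lowest and the highest value were in Trf1flox/flox libraries, and the log2 fold change of Slc7a7 was 0.21 (SE 1.54, 95% interval -3.55 to 3.96). It was 1.69 without Trf1flox/flox replicate 1, and -0.59 without Trf1+/+ replicate 2. Oxa1l overlaps Slc7a7 over 232 bases on the other strand. Slc7a8 (chromosome 14, 54722209 to 54781946, minus strand) encodes a light chain that exchanges neutral amino acids. It had 61.5, 419 and 284 normalized counts in the Trf1+/+ mice and 283, 537 and 204 in the Trf1flox/flox mice, again with overlap. For Slc7a8 the log2 fold change was 0.69 (SE 1.04, 95% interval -1.84 to 3.21), and -0.14 without the library labelled Trf1+/+ replicate 1.

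The balance of partner and carrier mRNA varied from library to library. Cltrn stood at 86.4, 92.6 and 14.5 times the sum of Slc6a18, Slc6a19 and Slc6a20b per kilobase in Trf1+/+ libraries and at 11.4, 22.3 and 21.8 times this sum in Trf1flox/flox libraries. It exceeded these carriers in 6 of 6 libraries, and the groups overlapped through Trf1+/+ replicate 3. Slc3a2 stood at 0.150, 3.18 and 1.26 times the sum of Slc7a7 and Slc7a8 in Trf1+/+ and at 5.20, 0.788 and 1.25 times this sum in Trf1flox/flox libraries. Here both groups had libraries above and below 1.

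**Figure D4:**
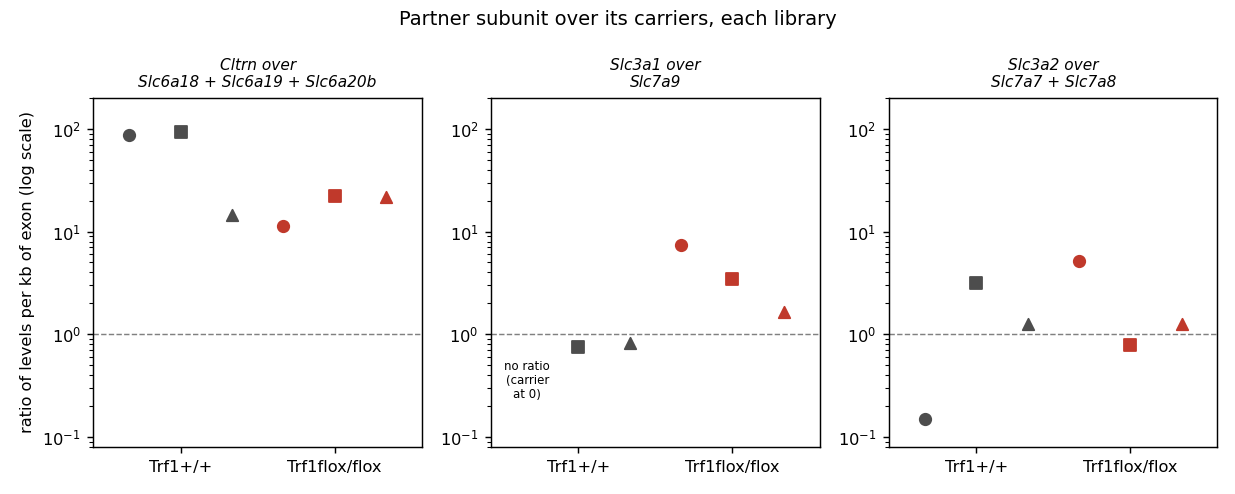
Ratio of a partner subunit to its carriers, in levels per kilobase of exon (log scale), in each library of the 2 groups. The dashed line marks a ratio of 1; Cltrn is above it in all 6 libraries, and the Slc3a1 to Slc7a9 ratio is above it in the 3 Trf1flox/flox libraries and below it in the 2 Trf1+/+ libraries that give one.

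The study asked what deletion of Trf1 changes in these cells, and for each of the 10 genes the ranges of the genotypes overlapped and no difference was called. Differences were taken on log2(normalized count + 1), and a limma fit covered the 9966 genes that reached 10 normalized counts in 3 or more libraries. The added 1 shrinks differences between low values, but the limma fold changes are not lower bounds. The limma values were above those of edgeR and DESeq2 for Slc1a1, Slc3a1, Slc3a2, Slc6a18, Slc6a19, Slc6a20b, Slc7a8 and Slc7a9. For Slc7a7 the limma value was below both, and for Cltrn it was between them. All 10 genes passed this filter, and each had an adjusted p of 0.996 in limma. None of the 10 was called at an adjusted p under 0.05 in limma, and among all tested genes 0% were. At an unadjusted p under 0.05 the members again numbered 0, beside 4.56% of all tested genes. No member had groups without overlap, beside 8.68% of all tested genes. At an adjusted p under 0.05 edgeR called 0 members, beside 0% of all tested genes, and DESeq2 called 0, beside 0.582%. DESeq2 gave no adjusted p for Slc6a20b. The median over the 10 was 0.48 in edgeR and 0.52 in DESeq2, beside -0.04 and -0.05 over all genes.

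The log2 fold changes were positive for 8 members and negative for 2, Slc6a19 and Cltrn, whose sign turned with upper quartile scaling (0.16 and 0.18). The median over the 10 was 1.12, beside 0.20 over all tested genes, of which 55.9% were higher in Trf1flox/flox libraries. Upper quartile scaling moved the median of all genes to 0.44 and that of the members to 1.36. Without the library labelled Trf1+/+ replicate 1 the median of the members was 0.21, beside -0.03 over all genes, and 7 members were above 0, with Slc6a19 at 0.00. The median of the within-group SD on the log2 scale was 1.43 over the members and 1.5 over all tested genes. Without Trf1+/+ replicate 3, Slc3a1, Slc6a18 and Slc6a20b were past an unadjusted p of 0.05 (adjusted p = 0.469, 0.314 and 0.320 in limma) and had groups without overlap, beside 8.32% of all genes at an unadjusted p under 0.05 and 24.4% without overlap in that fit.

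**Figure D5:**
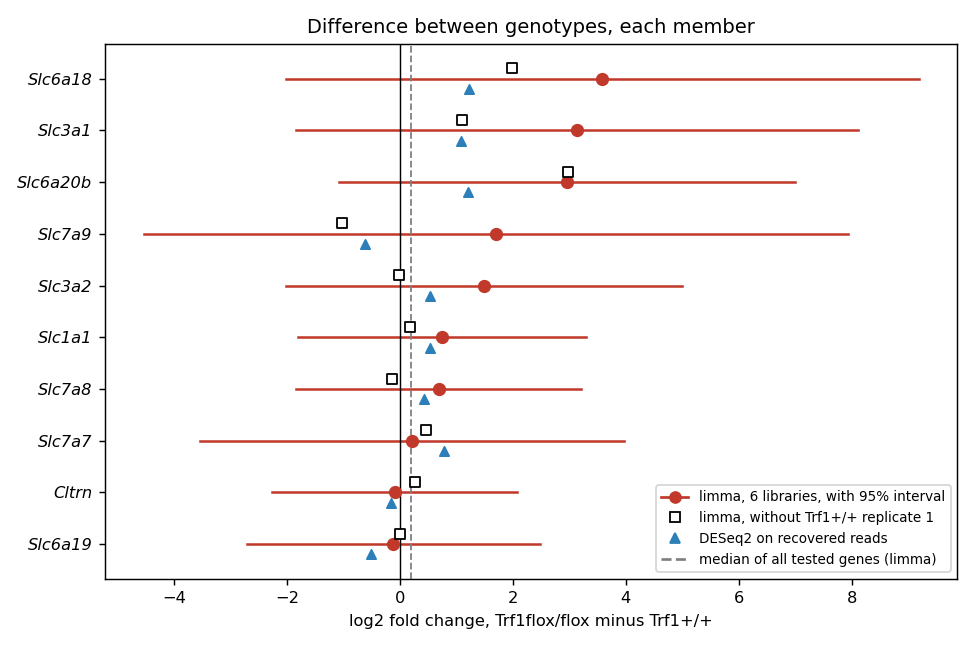
Log2 fold change (Trf1flox/flox minus Trf1+/+) of each gene from limma with its 95% interval (red), from limma without the library labelled Trf1+/+ replicate 1 (open squares) and from DESeq2 (blue triangles); the dashed line is the median of all tested genes, 0.20. Each interval includes 0, and the open square of Slc7a9 lies at -1.03.

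The 10 genes did not all have their lowest or their highest value in the same library, but most were lowest in the libraries labelled Trf1+/+ replicates 1 or 2. The library labelled Trf1+/+ replicate 1 was the lowest for 6 members, Trf1+/+ replicate 2 for 3 and Trf1flox/flox replicate 1 for Slc7a7. The highest value was in Trf1+/+ replicate 3 for 3 members, in Trf1flox/flox replicate 2 for 3, in Trf1flox/flox replicate 3 for 2, in Trf1+/+ replicate 1 for Cltrn and in Trf1flox/flox replicate 1 for Slc3a2. Without Cltrn, the members summed to 870, 2053 and 5790 normalized counts in the Trf1+/+ mice and to 3804, 3781 and 4843 in Trf1flox/flox libraries. The library labelled Trf1+/+ replicate 1 thus had the lowest sum of these 9 genes although its proximal tubule markers, at 198871, were the second highest. Cltrn made up 93.0% of the summed counts of the 10 there and 54.1% to 68.4% in the other 5 libraries. In that library 3 members were at the floor (Slc3a1, Slc6a18 and Slc7a9), and in the others none.

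Further amino acid transporters also varied between libraries of one group. Of 46 genes in this list 25 are listed and 16 were tested, of which 12 had a positive and 4 a negative log2 fold change, with a median of 0.89, and 0 were past an unadjusted p of 0.05 or had groups without overlap. Without the library labelled Trf1+/+ replicate 1 the split was 6 positive and 10 negative, and the median was -0.37. Slc7a12, an amino acid carrier of the same family as Slc7a9, had 0.891, 24.9 and 0 normalized counts in the Trf1+/+ mice and 911, 0 and 203 in the Trf1flox/flox mice. Slc43a2, a carrier of large neutral amino acids, had 903, 614 and 237 against 253, 157 and 412. Slc7a4, Slc36a4 and Slc7a1, the last a carrier of dibasic amino acids found in many cells, each had libraries at the floor in both groups. Slc7a13, chosen after its values were seen, partners with the heavy chain of Slc3a1 in the late proximal tubule and counted 3353, 263 and 4419 (normalized) in the Trf1+/+ mice and 0, 1834 and 6106 in the Trf1flox/flox mice. Its median of 1211 per kilobase was above that of each member except Cltrn.

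Slc7a12 and Slc7a13 were opposite in the library Trf1flox/flox replicate 1, which held 911 normalized counts of the first and 0 of the second. That library had 1565 normalized counts of Xist, the RNA of the inactive X chromosome, against 0 to 55.7 in the others, and 0 of the Y-linked gene Ddx3y, against 116 to 997. The mice were of both sexes, the labels do not give the sex of each library, and its part in these values was not tested. Ddx3y had 997, 602 and 781 normalized counts in the Trf1+/+ mice and 0, 116 and 291 in the Trf1flox/flox mice, without overlap. Of the 5 sex-linked genes 3 were tested, and all 3, Uty, Ddx3y and Eif2s3y, had a negative log2 fold change. Uty, also on the Y chromosome, had 52.6, 159 and 321 against 2.58, 7.65 and 48.2 (unadjusted p = 0.0313 and adjusted p = 0.968 in limma). Thus 2 of the 3, Uty and Ddx3y, had groups without overlap, beside 8.68% of all tested genes. Of the 3, 1 was past an unadjusted p of 0.05 in limma, beside 4.56% of all tested genes. Without Trf1flox/flox replicate 1 the median log2 fold change of the 10 members was 1.5.

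Genes that handle peptides at the brush border, or that partner with carriers, were tested for 9 of 11, with 6 positive and 3 negative log2 fold changes and a median of 0.58. In 3 of them, Slc15a2, Ggt1 and Mme, all Trf1flox/flox libraries were above all Trf1+/+ libraries, beside 8.68% of all tested genes without overlap in either direction, and none of the 9 was past an unadjusted p of 0.05. The median of this list was 0.75 without the library labelled Trf1+/+ replicate 1. Slc15a2, the high-affinity luminal peptide carrier, had 2.67, 483 and 136 normalized counts in the Trf1+/+ mice and 819, 681 and 1109 in the Trf1flox/flox mice, a log2 fold change of 3.77 (SE 1.86), and 1.73 without the library labelled Trf1+/+ replicate 1. Ggt1, which splits glutathione in the lumen, had 1334, 935 and 1966 against 2055, 2830 and 2367, and a log2 fold change of 0.83 (SE 0.76). The groups of Ggt1 stood apart by a narrow margin, and its difference was near the size of its standard error. The peptidase gene Enpep had 517, 219 and 164 normalized counts against 3.44, 0 and 702, and those of Dpp4 and Mep1a overlapped as well.

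Genes of the amino acid response, which cells raise when amino acids run short, were tested for 11 of 20, with 8 positive and 3 negative log2 fold changes, a median of 0.99 and 0 past an unadjusted p of 0.05. Without the library labelled Trf1+/+ replicate 1 the split was 6 and 5, with a median of 0.19. Atf4, the transcription factor of this response, had 0.891, 356 and 229 normalized counts in the Trf1+/+ mice and 235, 217 and 372 in the Trf1flox/flox mice, so that the 5 libraries other than the one labelled Trf1+/+ replicate 1 lay between 217 and 372. Psph and Psat1, enzymes of serine synthesis, had log2 fold changes of -1.73 (SE 1.14) and 3.82 (SE 2.63), which were -0.96 and 2.41 without that library. Cebpg, a partner of Atf4, had 1.41 (SE 0.95), and 1.94 without it. Sesn2, a target of Atf4, had 2.04 (SE 2.09), but 0.30 without that library and -0.62 and -0.49 in edgeR and DESeq2. Both signs occurred among these 5 genes with the lowest p.

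Marker lists of other cells differed between libraries of the same genotype. Of the 20 proximal tubule markers 14 had a positive and 6 a negative log2 fold change, with a median of 0.56, and their sums were 198871, 47426 and 194106 normalized counts in the Trf1+/+ mice and 56430, 155124 and 233016 in Trf1flox/flox libraries. The 5 with the lowest p, Slc13a3, Slc4a4, Slc5a2, Slc22a8 and Cubn, had log2 fold changes of 2.05 to 4.15. Without the library labelled Trf1+/+ replicate 1, Slc5a2 had 2.13 and Slc22a8 0.83, and the median of the 20 was 0.61. Slc22a8 was higher in every Trf1flox/flox library than in every Trf1+/+ library. Slc5a2, Slc22a8 and Cubn, named for their low p, were lowest in the libraries labelled Trf1+/+ replicates 1 or 2, where most members were lowest. Other markers of this list, Fbp1, Kap, Cyp2e1, Cyp4b1, Acsm2 and Slc17a3, were instead lowest in Trf1flox/flox replicate 1. Loop and distal tubule markers were highest in the 2 libraries where the proximal tubule markers were lowest, with 154620, 185226 and 105939 normalized counts in the Trf1+/+ mice and 196575, 118035 and 87455 in Trf1flox/flox libraries. Of these, Slc12a3 and Calb1 were lower in every Trf1flox/flox library than in every Trf1+/+ library. These are 1 of 20 and 2 of 11 genes without overlap, beside 8.68% of all tested genes. Collecting duct markers summed to 877 to 20434, erythroid markers to 121 to 52403, immune markers to 0 to 2513, pericyte markers to 0 to 280, podocyte markers to 0 to 131 and endothelial markers to 1.72 to 307. The part of this makeup in the values of the 10 genes was not tested.

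When each library was scaled to the same sum of proximal tubule markers, an alternative chosen after seeing the data, 8 members had a positive log2 fold change, with a median of 1.05 beside 0.12 over all tested genes, and 0 were called. The genes whose log2 values were most like the mean of the 10 over the 6 libraries, among 7166 whose mean reached 100 normalized counts, were Rere (Pearson r = 0.992), Nlrp6 (0.991), Snn (0.989), Bmp7 (0.989), Gm10804 (0.987) and Thumpd1 (0.985). These values describe 6 libraries that share the spread in genes above 0 and in makeup given above, and the genes were picked as the highest of many. Bmp7, a growth factor of the tubule, had 0, 4.97 and 529 normalized counts in the Trf1+/+ mice and 150, 176 and 263 in the Trf1flox/flox mice. Like the members without Cltrn, it was lowest in the libraries labelled Trf1+/+ replicates 1 and 2 and highest in Trf1+/+ replicate 3.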

How the data were processed

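RNA of sorted mouse kidney cells was measured in 6 libraries, 3 Trf1+/+ and 3 Trf1flox/flox. Per the labels and the paper's methods, the authors primed RNA with oligo(dT), amplified it by PCR, aligned non-stranded reads with TopHat2 2.0.10 and Bowtie 1.0.0 and counted genes with HTSeq 0.6.1. The sources name both GRCm38 and GRCm39, and coordinates and exon lengths here are from GENCODE annotation of GRCm38, which held 11911 of the 12125 symbols. The deposited values are a signal, counts that the authors divided by size factors, and all (100%) are whole multiples of 1 read within 0.01 reads. limma 3.58.1 (lmFit and eBayes, Benjamini-Hochberg adjustment, two-sided) was run on log2(value + 1) without covariates. The fits were tried on simulated counts with set changes and far less spread within groups than these libraries. That trial checks the code and not the power in these data. On the recovered reads, edgeR 4.0.16 (quasi-likelihood) called 0 genes and DESeq2 1.42.0 called 58 of 9966 at an adjusted p under 0.05. The members, gene lists and tests were chosen with earlier results of these data known, and the sex-linked genes after their values were seen. Text names all members, Terf1, up to 5 genes with the lowest p per list, defining markers and the 6 genes most like the members. A few further genes are named where they limit a statement. No molecular identifiers exist, so floors cover counting error only. Intervals of 95% are limma's. Some genes and motifs that were part of the plan are not reported here.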

Additional observations from a re-analysis of the deposited data

How the results depend on the processing

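Under the 14 alternatives, no member was called at an adjusted p under 0.05. Of 140 member values, 19 changed sign, 1 of them to 0.00 when rounded (Slc6a19 without the library labelled Trf1+/+ replicate 1), and 4 members (Slc1a1, Slc3a1, Slc6a18 and Slc6a20b) changed sign under none. With upper quartile scaling, Slc6a19 was 0.16 and Cltrn 0.18. With library weights, Slc6a19 was 0.14, Slc7a8 -0.17 and Cltrn 0.45. Slc7a9 was -0.56 with edgeR and -0.62 with DESeq2, which called 58 genes against 0 in limma; the cause was not tested. Genes at an unadjusted p under 0.05 numbered 454 in limma, 196 with edgeR and 312 in limma with a mean-variance trend, an alternative chosen after seeing the data. Leaving out each library in turn, Slc1a1 ranged from 0.17 to 1.47, Slc3a1 from 1.09 to 5.02, Slc3a2 from -0.02 to 2.45, Slc6a18 from 1.98 to 5.92, Slc6a19 from -0.96 to 0.61, Slc6a20b from 1.36 to 4.56, Slc7a7 from -0.59 to 1.69, Slc7a8 from -0.14 to 1.24, Slc7a9 from -1.03 to 3.89 and Cltrn from -0.64 to 0.26. The members' median log2 fold change ranged from 0.21 (without the library labelled Trf1+/+ replicate 1) to 1.75 (without Trf1+/+ replicate 3). Members at an unadjusted p under 0.05 ranged from 0 to 3, beside 322 to 829 of all 9966 genes, against 454 genes with 6 libraries. Members without overlap also ranged from 0 to 3, beside 1517 to 2431 of the 9966 genes, against 865 with 6 libraries. Over the other alternatives the members' median was 0.48 (edgeR) to 1.36 (upper quartile scaling). No paired analysis was possible because the labels give no replicate numbers; those used here were assigned only as names. With 3 libraries of 500 cells per group, the median standard error over all genes was 1.6 on the log2 scale.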
